A study of Mus musculus with 6 samples.

Results

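The TNF superfamily ligands and TNF receptor superfamily receptors were described in NKp46+ cells sorted from 3 mouse tissues. Members were all probes whose symbol began with Tnfsf or Tnfrsf, or was Tnf, Lta, Ltb, Fasl, Fas, Cd40 or Cd70. Tnfrsf7 was left out. This took 71 probes of 41 genes, out of 46643 probes and 31484 symbols on the array. Of the 41 genes, 28 had a probe that both arrays of 1 tissue or more detected (detection p-value under 0.01) and were tested, among 13458 genes tested in all. The tested members were 10 of 17 ligands, 4 of 5 receptors with a death domain, 11 of 14 receptors that bind TRAF adaptors without a death domain, 1 of 3 decoy receptors, the receptor Tnfrsf26, and Psmg2. Psmg2 encodes a proteasome assembly chaperone and entered only through its old symbol, Tnfsf5ip1. Several other members stood in the tables under older symbols, namely Cd40 as Tnfrsf5, Fas as Tnfrsf6, Fasl as Tnfsf6 and Relt as Tnfrsf19l. A further 3 probes were named in the tables after cDNA clones that current annotation gives to Tnfrsf22, Tnfrsf9 and Tnfsf10. They did not match the symbols and were not counted.

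The 3 groups were cells of gut lamina propria (called intestine here), skin and spleen, with 2 arrays each. All groups came from male RAG-2-KO mice on C57BL/6, aged 12 weeks, so cells of every group lacked the recombinase that T and B cells need, and no group had an intact immune system. The labels describe the cells as positive for CD45, Nkp46 and NK11 (the last spelled so) and without CD3. They do not say whether the 2 samples of a tissue came from separate animals, nor how many animals were pooled, so the p-values reflect only how far these samples differ, and that spread may be technical. Each array table gives a background-subtracted signal scaled to an array mean of 83.1, and a detection p-value. Probes detected made up 35.5% and 32.8% on the intestine arrays, 32.6% and 35.3% on the skin arrays, and 39.2% and 39.7% on the spleen arrays. Ncr1, which encodes NKp46, was detected on all 6 arrays, with signals of 10.8 and 14.7 in intestine, 33.1 and 32.4 in skin and 88.2 and 52.9 in spleen. Of the markers of other cells, Cd3e, Cd79a, Csf1r and Epcam were detected on none. Ms4a1, a B cell marker, was detected on 5 arrays and the myeloid markers Lyz2 and Adgre1 on 2 each. Other markers of such cells were detected on both arrays of a tissue, among them Cd3d, Cd3g, Cd79b and Cdh1. Cd79b had 18.8 and 35.2 in intestine, 1.48 and 3.93 in skin and 12.4 on each spleen array. Cdh1 had 61.1 and 84.5 in intestine, 8.96 and 5.98 in skin and -0.932 and 0.562 in spleen. Rag2 had signals between 0.341 and 13.2 and was detected on 4 of 6 arrays, but where its probe lies relative to the deletion was not known, so it checks nothing.

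TNF superfamily ligands are trimeric proteins made at the cell surface, many of which can be shed, and they act on receptors that cluster when bound. Receptors with a death domain can start caspase activation, while receptors without one recruit TRAF adaptors and activate NF-kappaB and MAP kinases. Natural killer cells use Fas ligand and TRAIL to kill target cells, secrete TNF, and carry costimulatory receptors of this family such as 4-1BB and GITR. Innate lymphoid cells of the gut share NKp46 in part, and lymphotoxin and RANK ligand are among the family members known from lymphoid tissue inducer cells.

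Among the tested members, more were higher than lower in intestinal cells. Against spleen, 15 of the 28 tested members were higher in intestine, 6 were lower and 7 did not pass (limma, Benjamini-Hochberg adjusted p under 0.05 over all 13458 genes). Over all genes tested, 21.0% were higher and 28.3% lower in that comparison. The median member difference was 0.58 on the log2 scale, beside -0.04 over all genes. Against skin, 15 members were higher in intestine, 4 lower and 9 did not pass, where 16.4% of all genes were higher and 22.8% lower, with medians of 0.47 for the members and -0.08 for all genes. In skin against spleen, 4 members were higher, 5 lower and 19 did not pass, where 13.1% of all genes were higher and 11.4% lower. The member median was -0.02 there, and that of all genes 0.00359. The 3 comparisons share arrays in pairs, so their counts are not independent of one another. Tnfsf4 and Tnfsf11 entered the test only through detection in intestine, where they were high, and Tnfrsf13b only through spleen. For these genes the direction was partly set by the filter. The 13 members higher in intestine against both other tissues were the ligands Tnf, Tnfsf11, Tnfsf9, Tnfsf4, Tnfsf14 and Tnfsf10 and the receptors Tnfrsf9, Tnfrsf1b, Tnfrsf12a, Tnfrsf18, Tnfrsf25, Tnfrsf10b and Fas. Tnfsf13, Tnfrsf22 and Relt were lower in intestine against both.

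The replicate arrays lay on 2 slides, each with 1 array of every tissue. Over all 28 tested members, called or not, the difference had opposite signs on the 2 slides for 3 in intestine against spleen, 4 in intestine against skin and 3 in skin against spleen. The deposited signals of the 2 tissues did not overlap for 25, 23 and 21 members in the same order of comparisons, beside 80.5%, 68.6% and 74.5% of all genes tested. Overlap below refers to the deposited signals unless normalized values are named. Fold changes below refer to signal plus 16 after quantile normalization, which understates the change of dim genes. Where a gene was not detected on either array of the lower tissue, a lower bound is given. In sorted bulk samples, fewer cells of a type and less RNA per cell cannot be told apart.

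**Figure D1:**
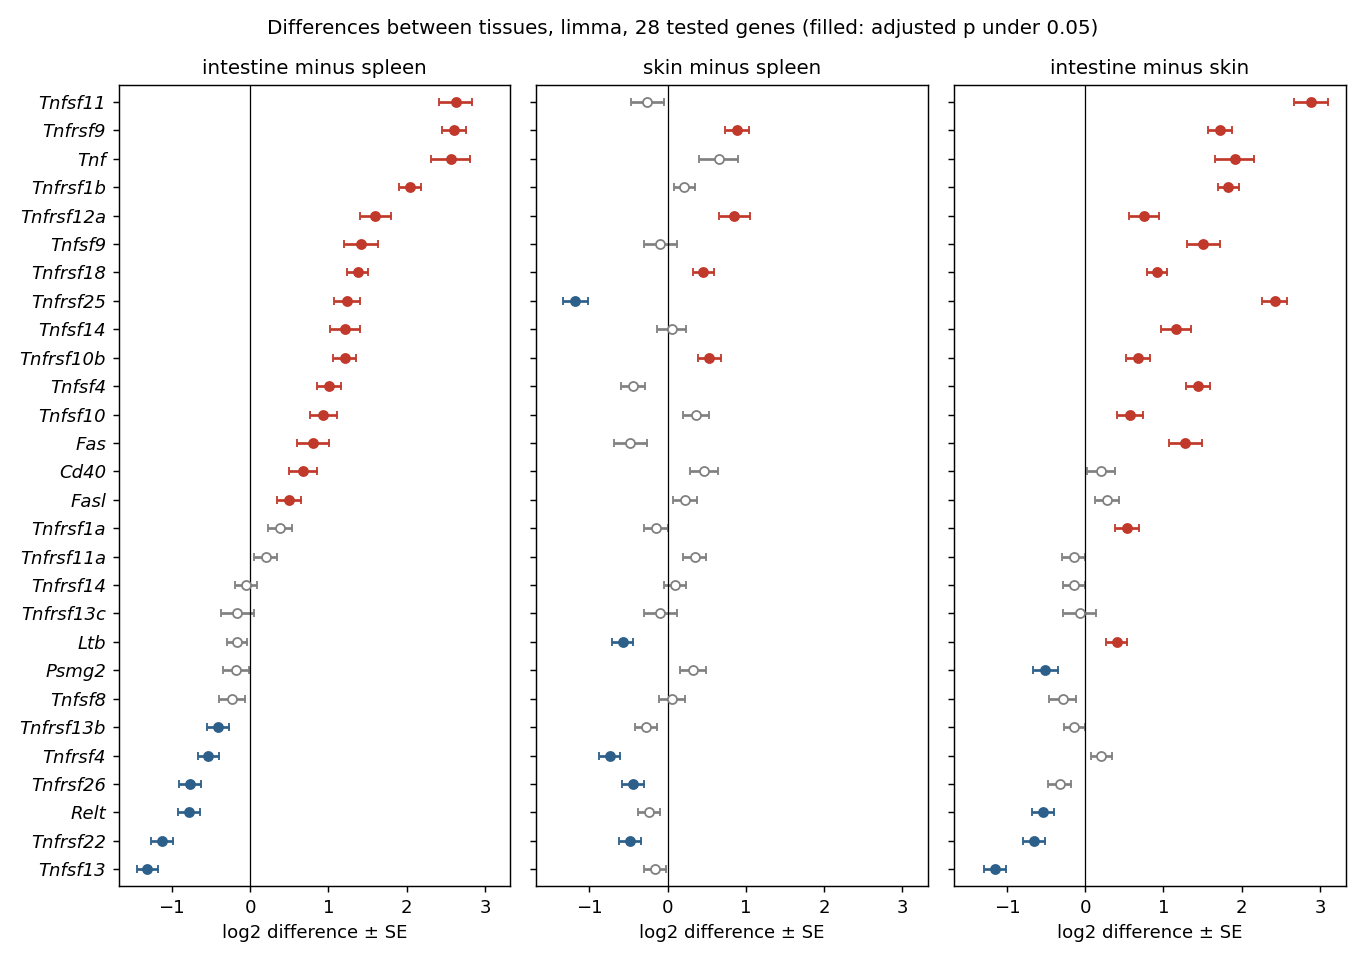
Log2 differences of the 28 tested genes in intestine minus spleen (left), skin minus spleen (middle) and intestine minus skin (right), with the standard error of the limma fit as bars. Filled red points were higher and filled blue points lower at an adjusted p under 0.05, and open points did not pass. In both intestine comparisons 15 points are red, in skin minus spleen 4.

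Of the genes called higher by at least 1 on the log2 scale in both intestine comparisons, 8 in number, 6 had promoter entries in RefSeq (GRCm38.p6), with 8 annotated start windows between them. Tnfsf4 and Tnfsf9 had no entry. The 250 bases before the start are shown for the 2 ligands with the largest differences and for the 3 windows that held a match to one of the 2 motifs searched, because NF-kappaB and AP-1 are the factors that TNF receptors are known to activate. The kappaB motif was searched as GGG, any pair of bases, TT, any base and CC, and the AP-1 motif as TGANTCA, on both strands, and matches are in capitals.
Tnf, chr17:35202008-35202257, minus strand: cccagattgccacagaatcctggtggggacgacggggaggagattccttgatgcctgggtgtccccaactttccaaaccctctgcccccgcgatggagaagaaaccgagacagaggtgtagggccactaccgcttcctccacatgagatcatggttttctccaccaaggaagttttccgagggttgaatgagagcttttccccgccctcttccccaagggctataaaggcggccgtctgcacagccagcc
Tnfsf11, chr14:78308044-78308293, minus strand: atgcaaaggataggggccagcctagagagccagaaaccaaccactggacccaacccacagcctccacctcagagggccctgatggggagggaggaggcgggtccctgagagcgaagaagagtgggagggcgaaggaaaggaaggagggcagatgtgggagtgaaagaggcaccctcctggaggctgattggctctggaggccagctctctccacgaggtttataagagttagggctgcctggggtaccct
Tnfsf14, chr17:57194182-57194431, minus strand: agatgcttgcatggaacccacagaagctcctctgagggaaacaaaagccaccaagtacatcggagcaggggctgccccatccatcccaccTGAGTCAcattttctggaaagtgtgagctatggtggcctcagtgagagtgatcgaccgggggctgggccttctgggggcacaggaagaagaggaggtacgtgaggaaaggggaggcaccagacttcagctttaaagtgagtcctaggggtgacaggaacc
Tnfrsf9, second annotated start, chr4:150927749-150927998, plus strand: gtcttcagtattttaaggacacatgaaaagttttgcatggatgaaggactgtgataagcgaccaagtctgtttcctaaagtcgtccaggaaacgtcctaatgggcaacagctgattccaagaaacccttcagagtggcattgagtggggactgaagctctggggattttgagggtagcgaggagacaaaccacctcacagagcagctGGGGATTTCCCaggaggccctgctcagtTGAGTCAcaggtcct
Tnfrsf25, first annotated start, chr4:152115684-152115933, plus strand: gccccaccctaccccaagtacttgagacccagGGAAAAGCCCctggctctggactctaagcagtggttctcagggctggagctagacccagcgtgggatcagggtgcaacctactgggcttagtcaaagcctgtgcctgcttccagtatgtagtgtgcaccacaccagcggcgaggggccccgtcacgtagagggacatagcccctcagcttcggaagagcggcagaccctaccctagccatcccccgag

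The kappaB letters were present in 2 of the 8 windows and the AP-1 letters in 2 of the 8. Over all 32851 windows of that length in the table, 4.11% held the kappaB letters and 6.75% the AP-1 letters. In the Tnfrsf9 window, 2 overlapping kappaB matches began 43 bases before the start and an AP-1 match began 15 bases before it. The Tnfrsf25 match began 218 bases before the start, and the AP-1 match of Tnfsf14 160 bases before it. The windows of Tnf, Tnfsf11 and Tnfrsf1b, and the other starts of Tnfrsf9 and Tnfrsf25, held neither string of letters. A match describes the letters only, and binding was not measured.

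Among the ligands, Tnf itself, the founding cytokine of the family, had signals of 253 and 137 in intestine, 55.4 and 32.7 in skin and 25.1 and 29.7 in spleen. Both intestine arrays lay above every other array, and the skin arrays lay just above those of spleen. The intestine minus spleen difference was 2.57 ± 0.25 (SE, limma adjusted p = 2.9e-05), or 5.92-fold higher, with 3.01 on the first slide and 2.12 on the second. Against skin the difference was 1.91 ± 0.25 (limma adjusted p = 0.00023). Skin differed from spleen by 0.65 for Tnf (limma adjusted p = 0.079), and it passed with the slide as a block (limma adjusted p = 0.033).

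Tnfsf11 encodes RANK ligand, which drives osteoclast formation and, in lymphoid tissue inducer cells, lymph node development. Its probe had signals of 122 and 64.9 in intestine, 1.69 and -0.526 in skin and 2.67 and 3.58 in spleen. It was detected on the 2 intestine arrays and on none of the others, so the differences are bounds. Tnfsf11 was at least 5.76-fold higher in intestine than in spleen (limma adjusted p = 9.9e-06) and at least 5.11-fold higher than in skin (limma adjusted p = 6.5e-06).

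The costimulatory ligands Tnfsf9 (4-1BB ligand) and Tnfsf4 (OX40 ligand) were also highest in intestine. Tnfsf9 had 49.5 and 24.1 in intestine, 6.11 and 3.94 in skin, where it was not detected, and 4.73 and 5.39 in spleen. It was higher in intestine, by 2.67-fold over spleen (log2 1.42 ± 0.21, limma adjusted p = 0.00045) and at least 2.44-fold higher than in skin (limma adjusted p = 0.00038). Tnfsf4 had 22.1 and 20.7 in intestine, -2.91 and 0.697 in skin and 6.25 and 2.40 in spleen. The skin arrays did not detect it and 1 of the spleen arrays did. Its difference was 1.0 ± 0.15 against spleen (limma adjusted p = 0.00048), and intestine was at least 1.76-fold higher than skin (limma adjusted p = 6.3e-05).

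Tnfsf14 (LIGHT), a ligand of HVEM and of the lymphotoxin beta receptor, was detected on all 6 arrays, with 898 and 594 in intestine, 355 and 285 in skin and 382 and 334 in spleen. Intestine stood above both other tissues, which overlapped each other. The difference was 1.21 ± 0.19 against spleen (limma adjusted p = 0.00055) and 1.16 ± 0.19 against skin (limma adjusted p = 0.00089), and a second probe of the gene gave 0.90 and 1.25. Tnfsf10 (TRAIL), which triggers death receptors on target cells, had 27.0 and 30.0 in intestine, 14.0 and 23.0 in skin and 11.3 and 8.88 in spleen. Its differences were 0.94 ± 0.17 against spleen (limma adjusted p = 0.0014) and 0.58 ± 0.17 against skin (limma adjusted p = 0.021). The call against skin was lost without skin replicate 1 (limma adjusted p = 0.15) and without intestine replicate 2 (limma adjusted p = 0.066), and also with median scaling, the deposited scaling and an offset of 4 in place of 16 (limma adjusted p = 0.056, 0.074 and 0.058).

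Fasl, the ligand of the death receptor Fas, had signals of 1245 and 1225 in intestine, 883 and 1172 in skin and 983 and 897 in spleen. The intestine arrays were the highest, and skin and spleen overlapped. Fasl was higher in intestine, by 1.41-fold over spleen (log2 0.49 ± 0.15, limma adjusted p = 0.022), a call lost without spleen replicate 1, spleen replicate 2 or intestine replicate 2 (limma adjusted p = 0.079, 0.13 and 0.062) and under the median and the deposited scalings, the smaller offset and no filter (limma adjusted p = 0.079, 0.055, 0.063 and 0.052).

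Tnfsf13 (APRIL), a ligand of B and plasma cell receptors, went the other way among the ligands. Its signals were 118 and 113 in intestine, 333 and 285 in skin and 408 and 403 in spleen. Intestine lay below both other tissues, by 1.31 ± 0.14 on the log2 scale against spleen (2.48-fold lower, limma adjusted p = 5.1e-05) and 2.22-fold against skin (limma adjusted p = 0.00015). Ltb, the membrane partner of lymphotoxin alpha, had 209 and 195 in intestine, 157 and 176 in skin and 310.5 and 288 in spleen. Skin lay below spleen (-0.57 ± 0.13, limma adjusted p = 0.016) and intestine above skin (0.40 ± 0.13, limma adjusted p = 0.035), while intestine against spleen did not pass (-0.17, limma adjusted p = 0.31). It passed as lower with median scaling (-0.56, limma adjusted p = 0.0053) and with the deposited scaling (-0.53, limma adjusted p = 0.0064). The skin against spleen call was lost without spleen replicate 1, skin replicate 1 or spleen replicate 2 (limma adjusted p = 0.15, 0.086 and 0.094). Intestine against skin was lost without any of those 3, without intestine replicate 1 or without skin replicate 2 (limma adjusted p between 0.066 and 0.14), and with median scaling, the deposited scaling, the smaller offset or no filter (limma adjusted p between 0.071 and 0.16). Tnfsf8 (CD30 ligand) had 26.7 and 23.4 in intestine, 43.0 and 35.0 in skin and 38.4 and 57.0 in spleen, and passed in no comparison in the reported values. It passed as lower in intestine than in spleen with median scaling (-0.65, limma adjusted p = 0.0060) and with the deposited scaling (-0.62, limma adjusted p = 0.0076).

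**Figure D2:**
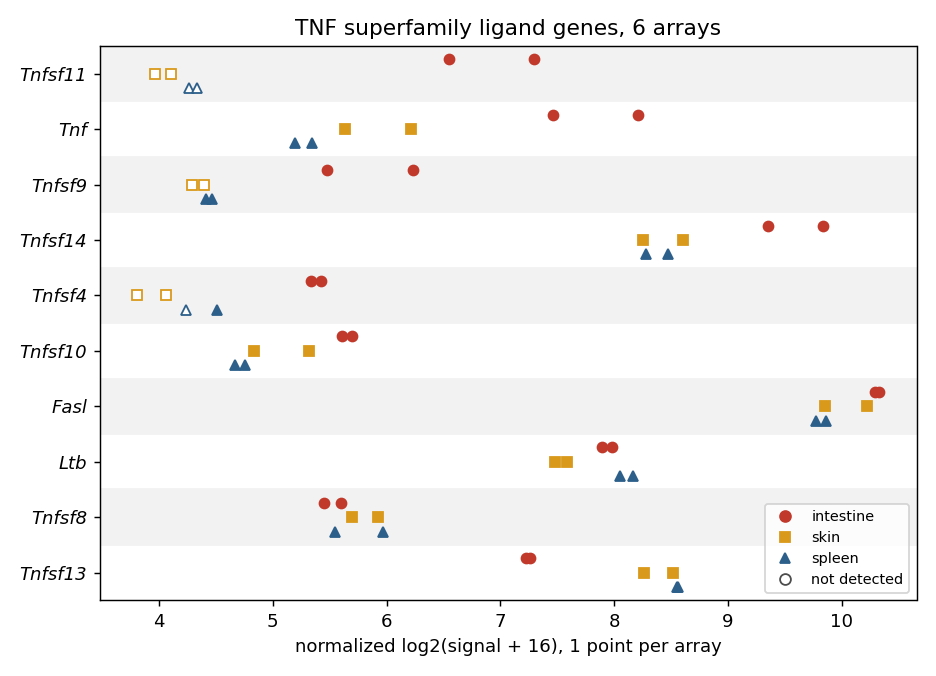
Normalized log2(signal + 16) of the 10 tested ligand genes, 1 point per array, with intestine as red circles, skin as yellow squares and spleen as blue triangles, and open symbols where the gene was not detected. Genes run from the highest plotted intestine minus spleen difference (Tnfsf11, 2.62) at the top to the lowest (Tnfsf13, -1.31) at the bottom. Tnfsf11 was not detected in spleen, so its place above Tnf (2.57) is not established.

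Turning to the receptors without a death domain, Tnfrsf9 (4-1BB), an activation-induced costimulatory receptor, had signals of 298 and 341 in intestine, 88.8 and 96.3 in skin and 64 and 46.0 in spleen. The 3 tissues formed 3 separate levels. Tnfrsf9 was higher in intestine, by 6.09-fold over spleen (log2 2.61 ± 0.16, limma adjusted p = 1.5e-06), with 2.32 on the first slide and 2.89 on the second, and 1.72 higher on the log2 scale than in skin (limma adjusted p = 2.4e-05). Tnfrsf18 (GITR), a costimulatory receptor of T and NK cells, followed the same order, with 1105 and 1088 in intestine, 607 and 544 in skin and 479.7 and 470.4 in spleen. The difference was 1.37 ± 0.13 against spleen (limma adjusted p = 2.8e-05) and 0.92 ± 0.13 against skin (limma adjusted p = 0.00043), and a second probe gave 0.96 and 0.97.

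Tnfrsf1b (TNFR2), the TNF receptor without a death domain, separated intestine from the other tissues, which overlapped in the deposited signals but not after normalization. It had 412 and 394 in intestine, 97.6 and 118 in skin and 119 and 106 in spleen. The difference was 2.04 ± 0.14 against spleen (4.12-fold, limma adjusted p = 2.9e-06) and 1.83 ± 0.14 against skin (limma adjusted p = 7.1e-06). Its other kept probes gave between 0.93 and 1.38 against spleen. One of them was not detected in skin, and the other had 84.8 and 55.9 in intestine and 17.5 and 23.1 in skin. Tnfrsf12a (Fn14, the TWEAK receptor) had 124 and 71.2 in intestine, 60.4 and 54.8 in skin and 31.8 and 31.5 in spleen. It was higher in intestine, by 3.03-fold over spleen (log2 1.6 ± 0.20, limma adjusted p = 0.00013) and by 1.68-fold over skin (limma adjusted p = 0.012). The difference from skin was lost without intestine replicate 1 (limma adjusted p = 0.051) or skin replicate 2 (limma adjusted p = 0.074).

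Cd40, best known from B cells and antigen-presenting cells, was dim, with 13.1 and 25.8 in intestine, 18.5 and 17.6 in skin and 9.89 and 6.13 in spleen. Only 1 of its 4 probes was detected, and the others were detected on no array. Cd40 was higher in intestine than in spleen by 0.67 ± 0.18 (limma adjusted p = 0.011), and without spleen replicate 2 it did not pass. Tnfrsf4 (OX40), the receptor of the Tnfsf4 ligand, was lower outside the spleen, with 12.2 and 13.1 in intestine, 12.9 and 10.2 in skin and 36.7 and 32.3 in spleen. Intestine was lower than spleen by -0.53 ± 0.13 (limma adjusted p = 0.0076), which did not pass without spleen replicate 1 (limma adjusted p = 0.095) or spleen replicate 2 (limma adjusted p = 0.054). Tnfrsf4 and Tnfrsf18 are neighbouring genes, and in intestine against spleen they differed in opposite directions.

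Relt, a receptor of lymphoid tissues, was not detected on the intestine arrays (5.26 and 4.24) and had 13.9 and 16.6 in skin and 24.3 and 23.7 in spleen. It was at least 1.53-fold lower in intestine than in spleen (limma adjusted p = 0.0014) and at least 1.3-fold lower than in skin (limma adjusted p = 0.012), and a second probe was not detected in intestine either. Without skin replicate 2, with an offset of 64 or with the mean of the kept probes the difference from skin did not pass (limma adjusted p = 0.079, 0.054 and 0.066). Tnfrsf13b (TACI), a receptor of APRIL and BAFF, had 3.87 and 6.97 in intestine, where it was not detected, 10.9 and 6.75 in skin and 13.5 and 13.0 in spleen. It was at least 1.21-fold lower in intestine than in spleen (limma adjusted p = 0.031), which did not pass without spleen replicate 1, intestine replicate 1 or spleen replicate 2 (limma adjusted p = 0.16, 0.074 and 0.16) or with an offset of 64, no filter or median scaling over the detected probes (limma adjusted p = 0.10, 0.081 and 0.60).

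Of the remaining TRAF-binding receptors, 3 passed in no comparison. Tnfrsf11a (RANK) had signals from 4.47 to 15.2 over the 6 arrays, Tnfrsf13c (the BAFF receptor) from 3.36 to 16, and Tnfrsf14 (HVEM, a receptor of LIGHT) from 6.60 to 13.6. All 3 lay close to the detection limit, where these arrays give little precision. With median scaling over the detected probes, Tnfrsf11a passed as higher than spleen in intestine (0.57, limma adjusted p = 0.0077) and in skin (0.67, limma adjusted p = 0.0067).

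Of the receptors with a death domain, 4 of 5 were tested. Against spleen 3 of the 4 were higher in intestine and Tnfrsf1a did not pass (21.0% of all genes were higher), and against skin all 4 were higher (16.4% of all genes). Tnfrsf25 (DR3), which binds the ligand TL1A, had signals of 139 and 163 in intestine, 19.6 and 19.3 in skin and 67.4 and 91.1 in spleen. The 3 tissues were fully separated, with intestine the highest and skin the lowest. Tnfrsf25 was higher in intestine, by 2.36-fold over spleen (log2 1.24 ± 0.16, limma adjusted p = 0.00019) and by 5.35-fold over skin (log2 2.42 ± 0.16, limma adjusted p = 3.3e-06), and a second, dim probe gave 0.40 against spleen and was not detected in skin. Skin lay 2.27-fold below spleen (-1.18 ± 0.16, limma adjusted p = 0.0018). In the reported values, Tnfrsf25 was the only one of the 28 members called both lower in skin and higher in intestine than in spleen. Tnfsf4, not detected in skin, also passed as lower there with median scaling (-0.52, limma adjusted p = 0.030) and the deposited scaling (-0.45, limma adjusted p = 0.048). Fas passed as lower in skin with median scaling (-0.61, limma adjusted p = 0.039), where its intestine against spleen call was lost.

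Tnfrsf10b, the TRAIL receptor of mice, had 23.4 and 32.5 in intestine, 15.9 and 15.2 in skin and 6.27 and 3.46 in spleen, with the lower spleen array not detected. It was higher in intestine, by 2.31-fold over spleen (log2 1.21 ± 0.15, limma adjusted p = 0.00014) and 0.67 ± 0.15 higher than in skin (limma adjusted p = 0.0054), and its other 2 kept probes were detected in intestine and on none of the skin and spleen arrays. The death receptor Fas had 42.5 and 30.6 in intestine, 16.1 and 3.82 in skin and 21.1 and 20.4 in spleen. Intestine was higher than spleen by 0.80 ± 0.21 (limma adjusted p = 0.010) and higher than skin by 1.28 ± 0.21 (limma adjusted p = 0.00092). The second probe, detected on 1 of the 2 skin arrays, gave 0.29 and 0.08. The call against spleen was lost without spleen replicate 1, intestine replicate 1 or spleen replicate 2 (limma adjusted p = 0.052, 0.062 and 0.055) and under the median scaling, the deposited scaling and the smaller offset (limma adjusted p = 0.068, 0.054 and 0.082).

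Tnfrsf1a (TNFR1), the TNF receptor that carries a death domain, was detected on all 6 arrays, with 433 and 524 in intestine, 314 and 352 in skin and 413 and 451 in spleen. Intestine and spleen overlapped in the deposited signals but not after normalization (0.38 ± 0.15, limma adjusted p = 0.064, and 0.037 with the slide as a block). Intestine was higher than skin by 0.53 ± 0.15 (limma adjusted p = 0.019), which did not pass without skin replicate 1 (limma adjusted p = 0.10) or intestine replicate 2 (limma adjusted p = 0.078), or with the smaller offset (limma adjusted p = 0.061). The difference between intestine and spleen was thus 2.04 for Tnfrsf1b and 0.38 for Tnfrsf1a, and whether these 2 differ from each other was not tested.

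Tnfrsf22, a decoy receptor for TRAIL in mice, and its neighbour Tnfrsf26 were lower in intestine than in spleen. Tnfrsf22 had 2.38 and 5.18 in intestine, where it was not detected, 15.0 and 16.2 in skin and 37.7 and 29.6 in spleen, in 3 separate levels. It was at least 1.84-fold lower in intestine than in spleen (limma adjusted p = 0.00014) and at least 1.31-fold lower than in skin (limma adjusted p = 0.0046), and a second probe was not detected in intestine either. Tnfrsf26 had 15.3 and 18.1 in intestine, 24.4 and 32.9 in skin and 54.4 and 57.5 in spleen, and was lower in intestine than in spleen by -0.77 ± 0.14 (limma adjusted p = 0.0017). Its difference from skin did not pass (-0.32, limma adjusted p = 0.10), although it did with median scaling (-0.41, limma adjusted p = 0.046) and the deposited scaling (-0.45, limma adjusted p = 0.029). The third gene of that cluster, Tnfrsf23, was detected on no array. Near-identical copies could share hybridisation in this cluster, and where the probes of Tnfrsf22 and Tnfrsf26 lie was not examined. Psmg2 had 62.3 and 87.1 in intestine, 115 and 139 in skin and 125 and 115 in spleen, and was lower in intestine than in skin (-0.51 ± 0.16, limma adjusted p = 0.033). That call was lost without spleen replicate 1, intestine replicate 1, spleen replicate 2 or skin replicate 2 (limma adjusted p between 0.059 and 0.17), with the smaller offset and with no filter (limma adjusted p = 0.083 and 0.070). Against spleen Psmg2 passed as lower in intestine with median scaling (-0.63, limma adjusted p = 0.0062) and the deposited scaling (-0.60, limma adjusted p = 0.0089).

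**Figure D3:**
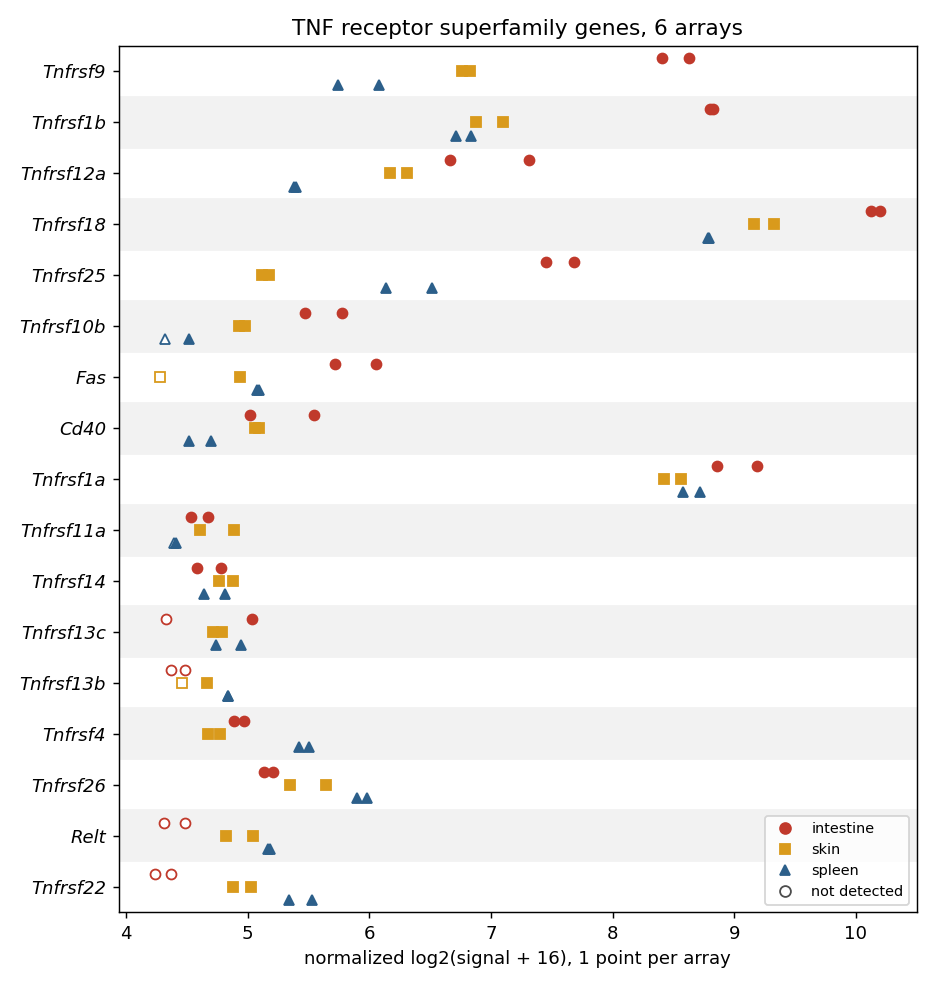
Normalized log2(signal + 16) of the 17 tested receptor genes, 1 point per array, with intestine as red circles, skin as yellow squares and spleen as blue triangles, and open symbols where the gene was not detected. Tnfrsf25 has intestine highest and skin lowest, while Tnfrsf4 at 4.7 to 5.5 has both below spleen.

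In skin against spleen the calls were few and mostly small. The 4 higher members were receptors, namely Tnfrsf9 (0.88 ± 0.16, limma adjusted p = 0.0056), Tnfrsf12a (0.85 ± 0.20, limma adjusted p = 0.015), Tnfrsf10b (0.53 ± 0.15, limma adjusted p = 0.031) and Tnfrsf18 (0.46 ± 0.13, limma adjusted p = 0.034). The 5 lower members were Tnfrsf25 (-1.18), Tnfrsf4 (-0.74 ± 0.13, limma adjusted p = 0.0055), Ltb (-0.57), Tnfrsf22 (-0.48 ± 0.14, limma adjusted p = 0.034) and Tnfrsf26 (-0.44 ± 0.14, limma adjusted p = 0.049). Of the 9 calls, only that of Tnfrsf25 held in all 17 alternative settings. Without spleen replicate 2, Tnfrsf9 had a limma adjusted p of 0.077, Tnfrsf12a 0.098, Tnfrsf10b 0.24, Tnfrsf18 0.19, Tnfrsf4 0.061, Tnfrsf22 0.13 and Tnfrsf26 0.26. Without spleen replicate 1 the same genes other than Tnfrsf9 also failed to pass (limma adjusted p between 0.087 and 0.27). Without skin replicate 1 Tnfrsf12a, Tnfrsf10b, Tnfrsf18, Tnfrsf22 and Tnfrsf26 did not pass (limma adjusted p between 0.091 and 0.25), and without skin replicate 2 Tnfrsf10b, Tnfrsf18 and Tnfrsf22 did not (limma adjusted p = 0.095, 0.054 and 0.060). The second probe of Tnfrsf18 gave -0.01.

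A total of 9 members had several detected probes. In intestine against spleen and in intestine against skin all probes of each of these 9 genes agreed in sign, and in skin against spleen those of 4 did. The 5 genes whose probes differed in sign there were Fas, Tnfrsf10b, Tnfrsf18, Tnfrsf1b and Tnfsf14. These signs include probes that were not detected in 1 or both of the tissues compared, among them probes of Tnfrsf10b, Tnfrsf22, Relt, Tnfrsf25 and Tnfrsf1b, whose differences are not measured on both sides. The other kept probes of Tnfrsf10b passed the filter only through intestine, and the second probes of Tnfrsf22 and Relt only through tissues other than intestine. For these probes the sign was partly set by the filter, so their agreement adds no support.

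**Figure D4:**
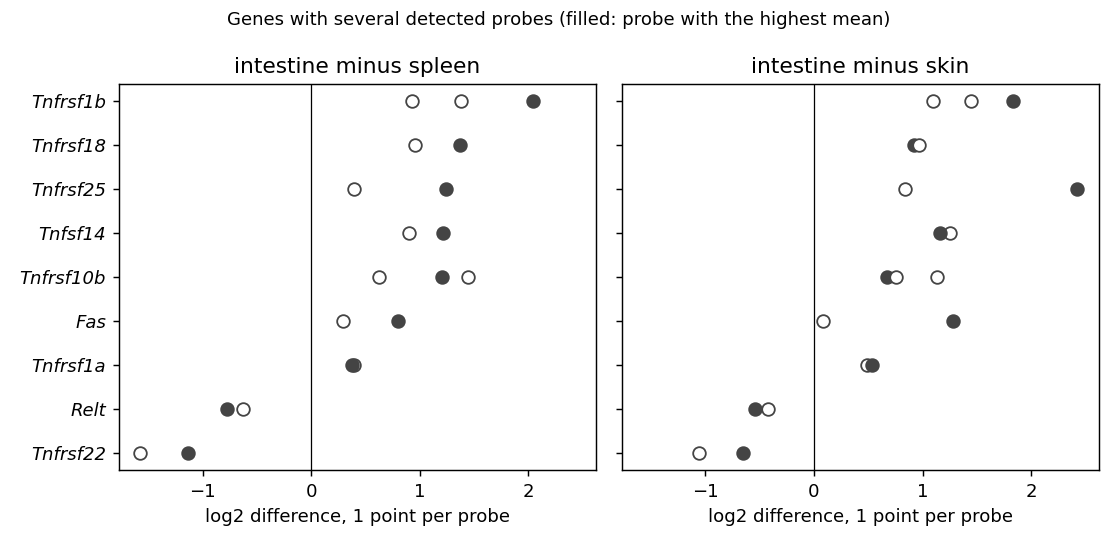
Log2 differences of each probe kept for testing of the 9 members with several detected probes, for intestine minus spleen (left) and intestine minus skin (right). Filled points mark the probe with the highest mean, which stands for the gene, and open points the other probes. All points of a gene lie on the same side of 0 in both panels.

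Of 21 known ligand and receptor pairs among the members, both genes were detected on both arrays for 8 pairs in intestine, 4 in skin and 6 in spleen. Tnf with either of its receptors and Tnfsf14 with Tnfrsf14 were detected in all 3 tissues. Tnfsf4 with Tnfrsf4 and Tnfsf11 with Tnfrsf11a were detected on both arrays in intestine and not in the other tissues. Tnfsf9 with Tnfrsf9 and Fasl with Fas were detected in intestine and spleen, Tnfsf10 with Tnfrsf10b in intestine and skin, and Tnfsf13 with Tnfrsf13b in spleen. The detection limit differed between the arrays, and detection of an mRNA does not show the protein.

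Members that did not reach detection on both arrays of a tissue, 13 in all, were 7 ligands and 6 receptors. Of these, Cd40lg, Cd70, Tnfsf12, Tnfsf15, Tnfsf18, Tnfrsf8, Tnfrsf11b, Tnfrsf17 and Tnfrsf23 were not detected in any measurement, with signals between -7.17 and 7.54. Lta, the secreted lymphotoxin, was detected in 2 of 6 measurements, with signals between -5.59 and 7.12. Tnfrsf19 and Tnfrsf21 (DR6) were each detected in 3 of 12, and Tnfsf13b (BAFF) in 1 of 24. For the receptors Tnfrsf12a, Tnfrsf18 and Tnfrsf25 the known ligands Tnfsf12, Tnfsf18 and Tnfsf15 were therefore not detected at this sensitivity.

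Several members are neighbours on the chromosome. Tnf lies between Ltb and Lta, and in intestine against spleen Tnf differed by 2.57 while Ltb differed by -0.17 without passing. Tnfsf9, Cd70 and Tnfsf14 follow each other, and both tested members were higher in intestine (1.42 and 1.21), while Cd70 was not detected. Tnfsf4 and Fasl, with Tnfsf18 between them, were both higher in intestine than in spleen (1.0 and 0.49).

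The genes around the receptors were listed by role, and their counts in intestine against spleen stand beside 21.0% higher and 28.3% lower over all genes tested, with a median of -0.04. A list of 19 tested genes on the path from TNF receptors to NF-kappaB held carriers of the signal and also its inhibitors. Of these, 11 were higher and 1 lower in intestine than in spleen, with a median of 0.73. The higher genes included the inhibitors Nfkbia (1.84), Nfkbib (1.95) and Nfkbie (2.30), so the count does not describe signal carriers alone. Rel, an NF-kappaB subunit, had signals of 384 and 219.8 in intestine, 17.7 and 21.4 in skin and 10.4 and 12.2 in spleen, a difference of 3.62 ± 0.20 (limma adjusted p = 9.6e-07). Map3k14 (NIK), the kinase of the alternative NF-kappaB pathway, differed by 2.58 ± 0.14 (limma adjusted p = 7.3e-07), although its second probe gave 0.54. Nfkb1, which encodes the p105 precursor, differed by 2.50 ± 0.14 (limma adjusted p = 9.7e-07), with a second probe at 1.70.

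Of 12 tested TRAF adaptors and regulators, 4 were higher and 2 lower in intestine than in spleen, with a median of 0.13. Traf4 had 921 and 809 in intestine, 69.5 and 77.2 in skin and 59.6 and 54.7 in spleen, a difference of 3.86 ± 0.13 (limma adjusted p = 1.0e-07), and its other probes gave between 2.68 and 3.07. Traf1, itself a known NF-kappaB target, had 3139.7 and 2973 in intestine, 724 and 829 in skin and 594 and 673 in spleen (2.32 ± 0.14, limma adjusted p = 1.6e-06), with a second probe at 1.38. Tnip1, which binds the A20 protein, differed by 2.0 ± 0.14 (limma adjusted p = 3.8e-06), with other probes between 0.80 and 1.24.

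A list of 19 tested genes around the death receptors held adaptors, caspases and other apoptosis genes, inhibitors included. Of these, 5 were higher and 9 lower in intestine than in spleen, with a median of -0.34. Birc3 (1.33 ± 0.19, limma adjusted p = 0.00037) and Birc2 (1.27 ± 0.14, limma adjusted p = 7.5e-05, other probes 1.05 and 1.09), which encode the cellular inhibitors of apoptosis, were higher. Bid, which links death receptors to mitochondria, had 31.1 and 53.1 in intestine, 198 and 197 in skin and 184 and 181 in spleen, a difference of -1.37 ± 0.18 (limma adjusted p = 0.00020).

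Among 14 tested feedback inhibitors, 5 were higher and 3 lower in intestine than in spleen, with a median of 0.19. Tnfaip3, which encodes the deubiquitinase A20, had 5955 and 6142 in intestine, 2109.9 and 2168 in skin and 673 and 1123 in spleen. Intestine lay above spleen by 2.75 ± 0.21 (limma adjusted p = 7.4e-06). Zc3h12a, an RNase that degrades inflammatory mRNAs, differed by 2.19 ± 0.14 in intestine against spleen (limma adjusted p = 1.8e-06). Zfp36 (tristetraprolin), which destabilises Tnf mRNA, had 3182 and 1999.6 in intestine, 3159.7 and 2152 in skin and 919.8 and 1272 in spleen. Intestine was higher than spleen by 1.25 ± 0.24 (limma adjusted p = 0.0021), and intestine and skin overlapped.

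For the genes involved in the release of ligands and receptors, 5 of 7 tested were higher and 1 lower in intestine than in spleen, with a median of 0.65. Furin, a proprotein convertase, differed by 1.81 ± 0.14 (limma adjusted p = 8.4e-06), and Rhbdf1, which was not detected on the spleen arrays, was at least 2.23-fold higher (limma adjusted p = 0.00037). Adam17, the protease that sheds TNF and its receptors, was lower, with 50.8 and 56.6 in intestine, 132 and 136 in skin and 197 and 188 in spleen (-1.16 ± 0.13, limma adjusted p = 7.6e-05). A list of 4 further tested superfamily genes held Eda, Ltbr, Rell1 and Relt, the last of which is counted above, and Relt was the only one of them that passed in intestine against spleen. The 15 genes named from these lists for intestine against spleen, leaving out Relt, kept their calls in each of the 17 alternative settings that tested them.

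In skin against spleen, 13.1% of all genes were higher and 11.4% lower. The lists had 2 higher genes among the 12 TRAF adaptors and regulators, 1 in the death receptor list of 19 and 2 in the NF-kappaB list of 19. Among the 14 feedback inhibitors 2 were higher and 3 lower. None passed among the 7 genes of ligand and receptor release, which lay between -0.28 and 0.17. Of the further superfamily genes 1 was higher. Tnfaip3 was higher in skin by 1.40 ± 0.21 (limma adjusted p = 0.0030) and Zfp36 by 1.31 ± 0.24 (limma adjusted p = 0.0069). Also named were Ripk3, a necroptosis kinase (0.63 ± 0.16, limma adjusted p = 0.020), and Map3k14 (0.60 ± 0.14, limma adjusted p = 0.015). Rnf31 of the linear ubiquitin complex (0.59 ± 0.13, limma adjusted p = 0.012) and Traf4 (0.55 ± 0.13, limma adjusted p = 0.016) followed. The last were the ligand gene Eda (0.48 ± 0.14, limma adjusted p = 0.036) and Traf1 (0.43 ± 0.14, limma adjusted p = 0.049, second probe 0.18). The second probe of Map3k14, not detected in skin, gave -0.29. The other probes of Traf4, 1 of them not detected in skin, gave -0.086 and 0.26. With the mean of the kept probes Map3k14, Traf4 and Traf1 did not pass (limma adjusted p = 0.40, 0.16 and 0.10). Of the 8 named genes, only Tnfaip3 kept its call in all 17 alternative settings. The other 7 did not pass without spleen replicate 1 (limma adjusted p between 0.068 and 0.32) or without skin replicate 1 (limma adjusted p between 0.060 and 0.11). Without spleen replicate 2 all of the 7 but Zfp36 did not pass (limma adjusted p between 0.098 and 0.15), and without skin replicate 2 Ripk3, Traf4, Eda and Traf1 did not (limma adjusted p = 0.051, 0.065, 0.11 and 0.19).

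**Figure D5:**
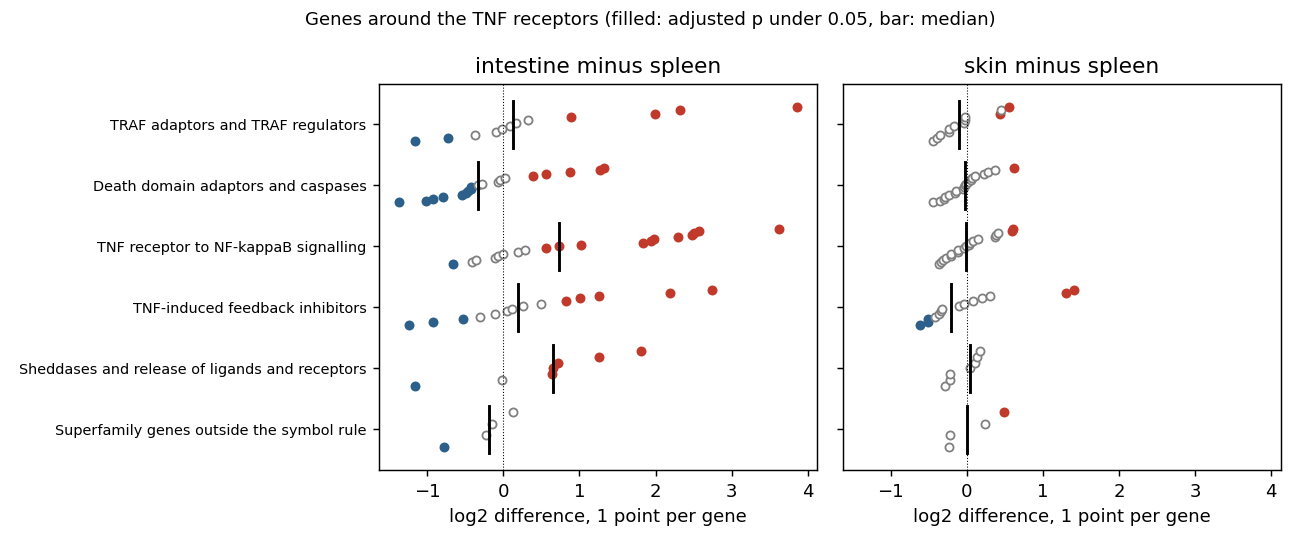
Log2 differences of the tested genes in 6 lists around the TNF receptors for intestine minus spleen (left) and skin minus spleen (right), 1 point per gene, filled red (higher) or blue (lower) at an adjusted p under 0.05, with a black bar at the list's median. The NF-kappaB list has 11 red points and a median of 0.73 in intestine minus spleen.

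Markers of other cells also differed between the tissues. Of 18 macrophage, monocyte and dendritic cell markers 10 were tested, and the same 7 were lower than spleen in intestine and in skin, namely Adgre1, Lyz2, C1qa, C1qb, C1qc, Mpeg1 and Cx3cr1, with 28.3% and 11.4% of all genes lower. Both spleen arrays detected all 10, while both intestine arrays detected 3 and both skin arrays 3. C1qb had 1.49 and -3.16 in intestine, 1.25 and -2.13 in skin and 19.1 and 21.1 in spleen, and Lyz2 had 1.02 and -0.135 in intestine, 8.27 and 6.23 in skin and 26.5 and 54.4 in spleen. Their summed signal was 257 to 293 in intestine, 466 to 470 in skin and 704 to 758 in spleen, most of it from Itgax and Cx3cr1, which NK cells also express. Tnfsf13, a gene also known from myeloid cells, was lower in intestine. It had 333 and 285 in skin, where its difference from spleen did not pass in the reported values (-0.16, limma adjusted p = 0.40). Under median scaling that difference was larger, and Tnfsf13 was called lower (-0.45, limma adjusted p = 0.027). Of 11 B cell markers 3 were tested, with a sum of 30.4 to 49.2 in intestine, 19.6 to 24.3 in skin and 27.1 to 29.1 in spleen, beside the dim signals of Cd40, Tnfrsf13b and Tnfrsf13c. Among 13 fibroblast and endothelial markers 4 were tested, and their sum was 624 to 759 in intestine, 239 to 265 in skin and 243 to 248 in spleen, most of it from Pecam1. Only Pecam1 of the 4 was called higher in intestine than in spleen (1.74). Kdr, another endothelial marker, did not pass in that comparison (0.25, limma adjusted p = 0.20). Dcn, a fibroblast marker, had 45.7 and -2.53 in intestine, 34.2 and 17.1 in skin and -0.443 and -3.49 in spleen, and was higher in skin than in spleen by 1.76 at the threshold itself (limma adjusted p = 0.050, just under it before rounding), while in no tissue did both arrays detect Col1a1, Col1a2 or Col3a1. Of 17 epithelial markers 5 were tested, with 1 higher and 1 lower in intestine than in spleen (sums of 111 to 158 in intestine, 92.6 to 119 in skin and 83.7 to 103 in spleen). Of 13 neutrophil and mast cell markers 2 were tested, with sums of 1379 to 1412 in intestine, 117 to 130.3 in skin and 284 to 293 in spleen, nearly all from Kit, which innate lymphoid cells also express. Of 12 T cell markers 6 were tested, with sums of 996 to 1183 in intestine, 888 to 969 in skin and 991 to 1097 in spleen. In intestine against spleen Cd3g (2.35) and Cd8a (1.19) were higher and Cd8b1 (-0.43) and Lat (-0.42) lower. Cd3g, which encodes a CD3 chain, had 312 and 597 in intestine, 54.6 and 59.4 in skin and 109 and 81.4 in spleen. Of 16 NK cell and innate lymphoid markers 15 were tested, of which 4 were higher and 10 lower in intestine than in spleen. What part these cell types have in the differences of the TNF family was not tested.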

How the data were processed

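Gene expression was measured on 6 Illumina mouse BeadChip arrays, with BeadStudio 1.5.1.3 named in the submitters' processing notes. Per the file headers, the deposited intensity of each probe is its average signal, and the deposited detection p-value comes from the scanner software. The values show that background had been subtracted and that the arrays share 1 mean signal, but these steps are not described in the sources used here. A second deposited table holds the same intensities unscaled, with means of 82.7 and 50.9 in intestine, 43.7 and 53.4 in skin and 137 and 131 in spleen. The number of arrays, and signal over background, limit the precision. No per-sample column was left unmapped.

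From the deposited intensities, log2(signal + 16) was computed and quantile normalized over all probes. Probes that both arrays of 1 tissue or more detected (detection p-value under 0.01) were kept (18583), and each gene was represented by its kept probe of highest mean. Differences were tested with limma 3.58.1 (R 4.3.3), with lmFit and eBayes over all 6 arrays and Benjamini-Hochberg adjustment over 13458 genes (threshold 0.05), after a run on simulated data. "At least" folds set the brighter tissue against the lowest signal among detected probes, or the dim probe's own signal where higher. The 2 arrays of a tissue carry replicate numbers I and II, and per the file headers each number lies on 1 slide with all 3 tissues. Deviations of same-numbered arrays correlated at 0.11, 0.16 and 0.21. Blocked values are given where a call changes.

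Every member detected on both arrays of a tissue is named, and from each pathway list up to 3 called genes with the largest difference in intestine against spleen and up to 2 in skin against spleen. Members and lists were chosen with earlier results of these data known. Gene symbols were updated, and promoters taken, from RefSeq tables.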

Additional observations from a re-analysis of the deposited data

How the results depend on the processing

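Calls were recomputed under 17 alternative settings, of which median scaling over the detected probes was chosen after seeing the data. Of the called members, 16 of 21 in intestine against spleen, 13 of 19 in intestine against skin and 1 of 9 in skin against spleen held in every setting that tested them, and no called member changed direction. With the replicate block, members higher in intestine than in spleen numbered 16 and members higher in skin than in spleen 5, through Tnfrsf1a and Tnf, and no other call of a member changed. The median of all genes in intestine minus spleen was -0.04 in the reported values, -0.28 with median scaling, -0.25 with the deposited scaling and 0.11 with median scaling over the detected probes. In skin minus spleen it was 0.00359, -0.19, -0.12 and 0.11 in the same order, and in intestine minus skin -0.08, -0.14, -0.18 and -0.05. Higher calls made up 42.6% of all calls in intestine against spleen (23.6%, 25.7% and 58.5% under these scalings), 53.4% in skin against spleen (26.2%, 36.1% and 71.2%) and 41.8% in intestine against skin (33.8%, 30.4% and 43.7%). Members lower in intestine fell to 3 against spleen and 2 against skin when only genes detected on all 6 arrays were kept. In that setting 11 members were higher in intestine than in spleen, beside 15 in the reported values. Members higher in skin than in spleen numbered 2 with median scaling, offset 64, no filter or the mean of the kept probes, and 7 with median scaling over the detected probes. Those lower numbered 10 with median scaling and 3 with offset 4, offset 64 or no filter. Over all genes, intestine against spleen gave 1832 higher and 5916 lower with median scaling and 4631 higher with median scaling over the detected probes. In skin against spleen, the higher genes numbered 944 with no filter and 3278 with median scaling over the detected probes, and the lower ones 3787 with median scaling, 3011 with the deposited scaling, 924 with offset 4 and 882 with no filter. Leaving out each array in turn gave 12 to 15 members higher and 4 to 7 lower in intestine against spleen, 12 to 14 higher and 2 to 4 lower in intestine against skin, and 0 to 6 higher and 1 to 6 lower in skin against spleen. Over all genes it gave 1701 to 2977 higher and 2368 to 3754 lower, 1668 to 2401 higher and 2319 to 3276 lower, and 269 to 2525 higher and 236 to 2211 lower, in the same order. Without skin replicate 2, 2 members were lower in intestine than in skin. The pathway lists, recomputed under these settings by a choice made after seeing the data, together gave 30 higher and 16 lower genes in intestine against spleen, 30 and 14 in intestine against skin and 8 and 3 in skin against spleen, leaving out Relt. With median scaling and the deposited scaling, 31 and 30 were lower in intestine than in spleen, and in skin against spleen 3 and 4 were higher and 22 and 19 lower. In skin against spleen, 5 were higher with the mean of the kept probes and 13 with median scaling over the detected probes, 1 was lower with offset 4 or no filter, and 5 with offset 64 or the replicate block. Leaving out each array gave 26 to 30 higher and 10 to 18 lower, 27 to 30 higher and 9 to 16 lower, and 1 to 12 higher and 0 to 8 lower, in the same order of comparisons. Among values of single genes, changes of sign occurred only among values that had not passed. With median scaling over the detected probes, Tnfrsf13c was 0.10 in intestine against spleen and 0.16 in skin against spleen, Tnfrsf14 0.27 in intestine against spleen, and Tnfsf11 0.018 and Tnfsf9 0.22 in skin against spleen. In skin against spleen, Tnfrsf1b was -0.12, Tnfsf14 -0.23 and Tnfsf8 -0.27 with median scaling, -0.052, -0.16 and -0.20 with the deposited scaling, and Tnfrsf1b -0.0036 and Tnfsf14 -0.15 with the mean of the kept probes. With each array left out in turn, Psmg2 ranged from -0.38 to 0.023, Tnfrsf13c from -0.53 to 0.20 and Tnfrsf14 from -0.155 to 0.049 in intestine against spleen, Cd40 from -0.062 to 0.47 and Tnfrsf13c from -0.43 to 0.29 in intestine against skin, and Tnfrsf13c from -0.18 to 0.012, Tnfsf14 from -0.12 to 0.23 and Tnfsf8 from -0.16 to 0.26 in skin against spleen. The cause of these changes was not tested.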
